A study of Mus musculus with 8 samples.

Results

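The clustered protocadherin locus of mouse chromosome 18 was examined at single CpGs in hepatocyte DNA of 4 mid-aged (40 weeks) and 4 young (10 weeks) mice. All animals were female and of the strain C57Bl6/J, the cells came from perfused livers, and each mouse gave 1 library. DNA methylation was measured by reduced representation bisulfite sequencing (RRBS), in which DNA cut with MspI is treated with bisulfite, so that the methylation level of a CpG is the percent of its reads that kept a cytosine. CpGs were taken as members by position, if they lay in the stretch that holds the Pcdha, Pcdhb and Pcdhg clusters and had at least 5 reads in every mouse after both strands were summed. This gave 835 CpGs, out of 897285 tested CpGs in the genome, from position 36930318 to position 37842786 of the mm10 build. They were 7.52% of the 11098 CpGs that the genome holds there. The median number of reads at a member was 61 in mid-aged mice and 42 in young mice.

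Clustered protocadherins are cadherin-like membrane proteins through which neurons tell their own branches from those of other cells. Each Pcdha or Pcdhg isoform begins with its own variable exon, which carries its own promoter and codes for the extracellular and transmembrane parts, and is spliced to constant exons that all isoforms of that cluster share. Pcdhb genes consist of a single exon. In neurons, a stochastic choice of promoters, with binding of CTCF and cohesin at unmethylated promoters, gives each cell its own set of isoforms, whereas the C-type isoforms (Pcdhac1, Pcdhac2, Pcdhgc3, Pcdhgc4 and Pcdhgc5) are regulated apart from the others. Hepatocytes are not known for using this code. The isoforms other than the C-type ones are called alternate isoforms here.

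The locus was marked by intermediate methylation. Of its CpGs, 54.6% had a mean level over the 8 mice of 20 to 80%, against 13.7% of all tested CpGs. A level under 20% was found for 30.4% of the CpGs of the locus and for 48.5% of all tested CpGs, and a level over 80% for 15% of the CpGs of the locus and 37.7% of all. The most methylated class of CpGs, above 90%, held 6.35% of the locus and 27.9% of all tested CpGs. In bulk DNA, an intermediate percent cannot tell apart cells, alleles and molecules that differ.

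**Figure D1:**
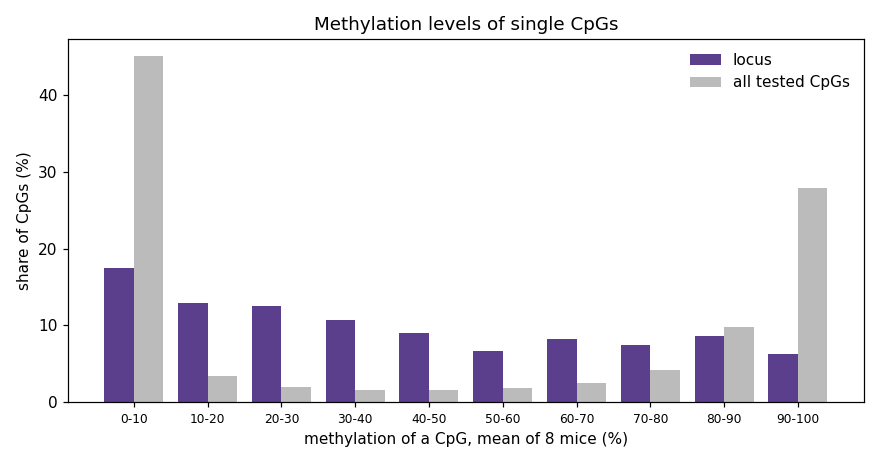
Share of CpGs (y axis, percent) by mean methylation over the 8 mice (x axis, percent, in steps of 10) for the 835 CpGs of the locus (purple) and for all 897285 tested CpGs (grey). The locus fills the middle of the range, where all tested CpGs are scarce.

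The levels stood apart from those of the genome at each CpG density. Dense CpGs, with 10 or more other CpGs within 100 bases, had a mean level of 28.3% in mid-aged and 27.0% in young mice in the locus (349 CpGs), while all dense CpGs of the genome averaged 11.5% and 11.2%. Sparse CpGs, with at most 4 others within 100 bases, went the other way, with 64.2% in mid-aged and 62.2% in young mice in the locus (117 CpGs) and 78.1% and 77.7% over the genome. At these sparse CpGs of the locus the lowest mid-aged mouse (63.5%) lay above the highest young mouse (63.0%). The same was so at all sparse CpGs of the genome, with 78.04% in the lowest mid-aged and 78.00% in the highest young mouse. All dense CpGs of the genome were without overlap too, while the groups overlapped at the dense CpGs of the locus. The intermediate densities had 48.5% in mid-aged and 47.1% in young mice in the locus (369 CpGs), and 62.7% and 62.4% over the genome. Neighbouring CpGs at most 50 bases apart differed by a median of 8.31 points in the locus (635 pairs) and 1.65 points over all tested CpGs. Among pairs with a mean of 20 to 80% these medians were 12.9 and 14.8 points, so such steps were about as large in the locus as at other CpGs of intermediate level.

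The pattern of single CpGs was alike between mice. Across the 835 CpGs, the levels of 1 mouse correlated with the mean of the other 7 mice at r = 0.934 to 0.964 in mid-aged and r = 0.880 to 0.946 in young mice. Over all tested CpGs the values were 0.986 to 0.992 in mid-aged and 0.974 to 0.990 in young mice, and all these points share libraries and sequence context. Young mice were the noisier group at the CpGs of intermediate level, in the locus (456 CpGs) as over the genome. A mid-aged mouse differed from the mean of the other mid-aged mice by an SD of 9.29 to 12.7 points and a young mouse from the other young mice by 14.4 to 19.0 points, where the read numbers alone would give 7.16 to 10.4 points and 8.45 to 9.95 points. Over all tested CpGs of that level the SDs were 10.5 to 13.5 points in mid-aged and 13.2 to 18.9 points in young mice.

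The 3 clusters differed in the mean level of the exon CpGs that were tested. The Pcdhb single exons were the most methylated, at 65.1 ± 1.53% in mid-aged mice and 63.0 ± 1.44% in young mice (87 CpGs, SD, n = 4 each). The alternate variable exons of Pcdha stood at 49.4 ± 1.1% in mid-aged mice and 49.2 ± 1.72% in young mice (71 CpGs). In the Pcdhg cluster, whose alternate isoforms fall into the types Pcdhga and Pcdhgb, the variable exons of Pcdhga had 37.4 ± 1.53% in mid-aged and 36.1 ± 1.23% in young mice (255 CpGs) and those of Pcdhgb had 45.6 ± 2.71% in mid-aged and 43.9 ± 1.02% in young mice (110 CpGs). The C-type exons were the lowest of the variable exons, with 18.2 ± 0.81% in mid-aged and 17.3 ± 0.42% in young mice (173 CpGs). The order of these 5 sections was the same in every one of the 8 mice, and in each of these sections the mice of the age groups overlapped. These means pool different places of the exons. In the first 500 bases, the alternate Pcdha exons were not below those of Pcdhb. Pcdha had 41.2 ± 1.72% in mid-aged and 40.6 ± 5.44% in young mice there, and Pcdhb 37.4 ± 0.46% and 37.1 ± 6.58%.

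Constant exons could be read only in part, since just the first of the 3 constant exons of each cluster held tested CpGs. The first constant exon of Pcdha (3 CpGs, 37156155 to 37156213) was highly methylated, with 89.7, 89.7, 87.5 and 95.4% in mid-aged mice, against 92.8, 60.1, 84.2 and 80.6% in young mice. The first constant exon of Pcdhg (3 CpGs, 37825021 to 37825079) was at the other end, with 5.13, 2.85, 11.1 and 11.1% in mid-aged mice, against 15.7, 5.80, 6.28 and 2.14% in young mice. The lowest of the 8 mice at the Pcdha exon was thus far above the highest of the 8 at the Pcdhg exon, while the age groups overlapped at both exons. Each value rests on 3 CpGs, with a median of 18.5 reads at the Pcdha exon in mid-aged and 23.5 reads in young mice.

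Outside the variable, single and constant exons the level again depended on the place. Within 1000 bases upstream of a variable exon, 9 CpGs of Pcdha averaged 18.3 ± 3.11% in mid-aged and 21.2 ± 1.98% in young mice, and 6 CpGs of Pcdhg averaged 5.37 ± 0.84% in mid-aged and 3.32 ± 0.69% in young mice. The 9 CpGs were 7 of Pcdhac1 and 2 of Pcdha8, and the 6 were 5 of Pcdhga11 and 1 of Pcdhgc3. The mice of the groups overlapped at the 9 CpGs of Pcdha. They did not at the 6 of Pcdhg, with 4.59, 5.21, 6.56 and 5.11% in mid-aged and 3.92, 2.9, 2.56 and 3.89% in young mice. At the 5 CpGs of Pcdhga11 alone the groups overlapped, with 3.85 to 7.0% in mid-aged and 0 to 4.0% in young mice. The median at the 6 CpGs was 12.5 reads in young mice. The remaining CpGs of the clusters were higher. Those of Pcdha (26 CpGs) had 76.9 ± 1.96% in mid-aged mice and 74.1 ± 2.48% in young mice. They include 9 CpGs in an exon of the gene Gm36858 and 3 in an exon of Gm38097. The values were 72.4 ± 5.90% and 66.1 ± 5.97% for Pcdhb (7 CpGs), and 57.7 ± 3.58% and 53.3 ± 6.07% for Pcdhg (12 CpGs). Between and beside the clusters, 73 CpGs had 64.7 ± 1.1% in mid-aged and 62.9 ± 0.86% in young mice. The exons of Taf7, which codes for a subunit of the general transcription factor TFIID, and of Slc25a2, an intronless gene of a mitochondrial carrier, lie between the clusters and held 0 tested CpGs.

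**Figure D2:**
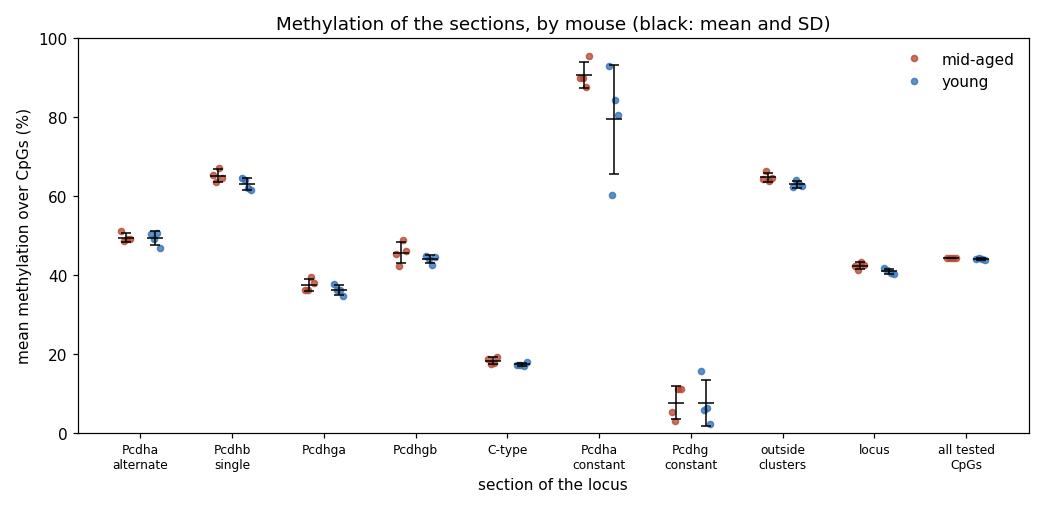
Mean methylation (y axis, percent) of the sections of the locus (x axis) in each of 4 mid-aged (red) and 4 young (blue) mice, with the group mean and SD in black. The sections differ far more from each other than the age groups do, with the first constant exon of Pcdha near the top and that of Pcdhg near the bottom.

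Of the 58 isoforms of the 3 clusters, 38 had at least 3 tested CpGs in their variable or single exon, namely 8 of 14 Pcdha, 9 of 22 Pcdhb and 21 of 22 Pcdhg isoforms. Pcdhb7 and Pcdhb14 had 2 CpGs each, and 18 isoforms had 0. The exon means of the 38 isoforms ranged between 1.67 and 81.8% over the 8 mice, with a median of 48.3%, and 33 of them lay between 20 and 80%. Of 2970 other tested exons of at least 2000 bases in the genome, 546 (18.4%) lay in that range, and their median was 86.5%.

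In the Pcdha cluster the most methylated exon was that of Pcdha2 (36939205 to 36941705, 6 CpGs), with 62.7, 66.6, 65.2 and 66.9% in mid-aged and 66.1, 74.6, 65.0 and 61.5% in young mice. The lowest was that of the C-type isoform Pcdhac2. In the Pcdhb cluster, Pcdhb9 (37400855 to 37403909, 3 CpGs) was highest, with 90.5, 74.0, 90.4 and 91.7% in mid-aged and 88.1, 45.8, 93.8 and 80.1% in young mice. The lowest was Pcdhb1 (37264938 to 37267525, 15 CpGs), with 54.0, 53.2, 51.5 and 54.5% in mid-aged and 57.6, 56.1, 45.4 and 45.2% in young mice. The mice of the groups overlapped at both of these Pcdhb exons. In the Pcdhg cluster, Pcdhga7 (37714764 to 37717861, 6 CpGs) was highest, with 80.7, 81.3, 85.6 and 81.8% in mid-aged and 86.3, 74.0, 77.7 and 80.7% in young mice. The lowest exon mean was that of the C-type isoform Pcdhgc4, which was read only in its first 500 bases, and there Pcdhgc3 had 1.31 ± 0.73% and Pcdhgc4 1.67 ± 1.03% (SD, n = 8 mice), without a difference beyond their spread. The 6 CpGs of Pcdhga7 lay 1417 to 1568 bases into its exon, and exons were not read at the same places. In the window from base 1500 to base 2000, which both could be read in, Pcdhga7 had 87.0 ± 3.14% and the next isoform, Pcdhgb4, had 44.2 ± 3.30% (SD, n = 8 mice).

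**Figure D3:**
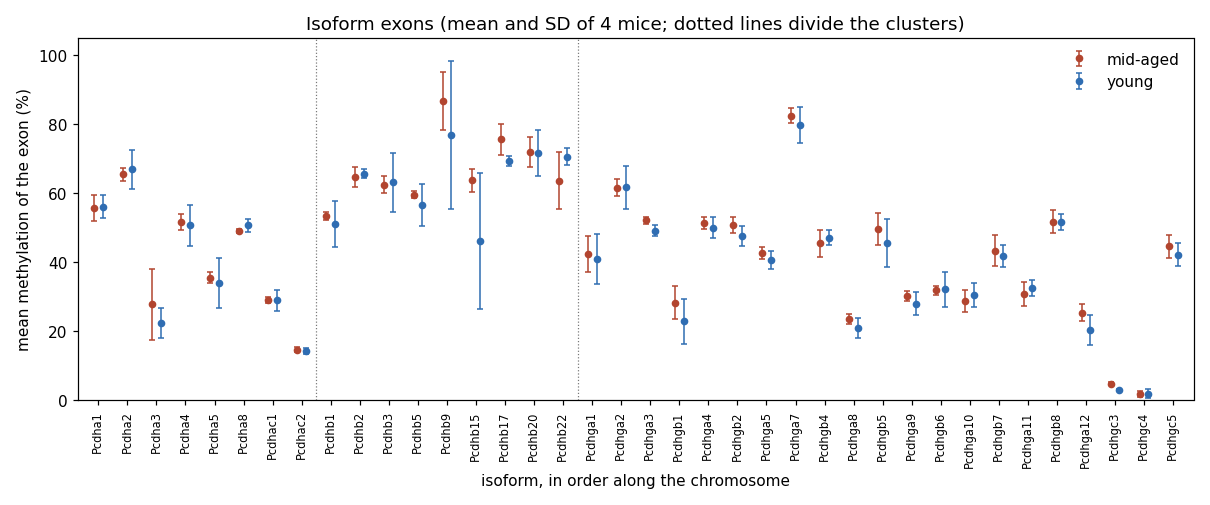
Mean methylation (y axis, percent) of the 38 variable or single exons with at least 3 tested CpGs, in order along the chromosome (x axis), in mid-aged (red) and young (blue) mice, with error bars for the SD of 4 mice. Levels range between 1.67 and 81.8% over all mice, and the mice of the age groups overlap in all exons shown except Pcdhgc3 and Pcdhb17.

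The place of a CpG within its exon went with its level. In the first 500 bases of the alternate exons the mean was 27.2 ± 1.01% in mid-aged mice and 25.5 ± 1.0% in young mice (148 CpGs of 18 isoforms), and from base 1000 to base 1500 it was 56.7 ± 1.17% in mid-aged mice and 54.7 ± 2.34% in young mice (133 CpGs of 21 isoforms). In the Pcdhb exons the step came early, since the first 500 bases had 37.4 ± 0.46% in mid-aged and 37.1 ± 6.58% in young mice and the next 500 bases 77.2 ± 1.98% and 75.7 ± 2.99%. The step was smaller in the alternate Pcdha exons, with 41.2 ± 1.72% in mid-aged and 40.6 ± 5.44% in young mice in the first 500 bases and 58.0 ± 1.86% and 57.6 ± 3.34% from base 2000 to base 2500. Of 30 such windows over the kinds of isoforms, 2 had no overlap of the age groups. The windows are not distinct, since those of all alternate isoforms pool the CpGs of the 3 clusters. No share was computed for like windows of the genome. Of all tested exons, 4.33% were apart and higher in mid-aged mice and 1.85% apart and lower. In the first 500 bases of the alternate Pcdhg exons mid-aged mice had 22.3, 20.4, 23.2 and 22.4% and young mice 19.7, 20.2, 19.7 and 20.05%, and in the C-type exons from base 1000 to base 1500 mid-aged mice had 16.694, 17.97, 18.4 and 19.05% and young mice 15.5, 16.689, 16.2 and 15.3%. In both windows the lowest mid-aged mouse was close to the highest young mouse.

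The same could be followed within single exons. For 15 isoforms, at least 3 CpGs were tested both in the first 500 bases and beyond base 1000, and in 14 of them the later part was the more methylated one in all 8 mice. The median difference between the parts over the 15 isoforms was 28.1 points. Pcdhga2 had 20.1 ± 5.96% in its first 500 bases and 85.8 ± 4.86% beyond base 1000, and Pcdhga4 had 15.8 ± 3.31% and 81.3 ± 2.60% (SD, n = 8 mice). The smallest step of these 14 was that of Pcdhgc3, with 1.31 ± 0.73% and 6.25 ± 2.15%. The exception was Pcdhgc5, with 65.1 ± 6.29% in its first 500 bases and 36.1 ± 2.79% beyond base 1000, the reverse in 8 of 8 mice. The windows hold different isoforms, and the exon starts are those of the annotation.

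**Figure D4:**
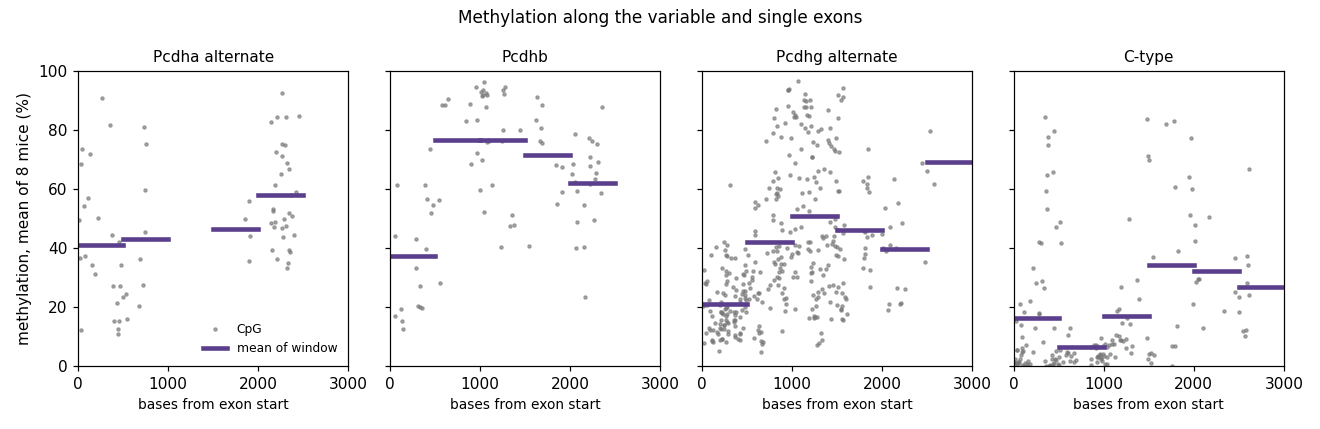
Methylation of single CpGs (grey points, mean of 8 mice, y axis in percent) by their distance from the annotated start of the variable or single exon (x axis, bases), for alternate Pcdha, Pcdhb, alternate Pcdhg and C-type isoforms. Purple lines are means over windows of 500 bases, which are low in the first window of Pcdhb and Pcdhg and higher behind it, while the means over all C-type exons stay under 20% up to base 1500, although single C-type isoforms such as Pcdhgc5 lie above that.

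Within the Pcdhg cluster, the alternate isoforms were compared over the same windows of their exons, a comparison chosen after their values were seen. The first 500 bases were low in all 10 isoforms that could be read there, between 14.0% (Pcdhga11) and 27.5% (Pcdhgb2), with a median of 22.1%. From base 500 to base 1000, the levels were lower towards the 3′ end of the cluster, with 87.9 ± 4.74% in Pcdhga2 and 88.3 ± 5.30% in Pcdhga3, 61.3 ± 3.25% in Pcdhga4, 39.0 ± 2.54% in Pcdhga5, 51.0 ± 6.35% in Pcdhgb5, 37.7 ± 4.53% in Pcdhga9, 28.4 ± 3.19% in Pcdhga10 and 26.5 ± 4.25% in Pcdhga11 (SD, n = 8 mice). Pcdhgb5 stood above Pcdhga5 against this order, and neither Pcdhga2 and Pcdhga3 nor Pcdhga10 and Pcdhga11 differed beyond their spread. The values of Pcdhga2 and Pcdhga3 rest on 3 CpGs each and that of Pcdhgb5 on 5, against 12 to 19 CpGs in the other isoforms. Spearman's rho between the order of the 8 isoforms and their level was -0.95 over all mice, and -0.98 to -0.88 in single mice. From base 1000 to base 1500, rho was -0.77 over 13 isoforms and -0.82 to -0.65 in single mice, with 84.8 ± 5.11% in Pcdhga2 as the highest and 22.7 ± 4.27% in Pcdhga12 as the lowest value. In the first 500 bases rho was -0.47 over 10 isoforms and -0.56 to 0.05 in single mice, so that the sign differed between mice there. The isoforms are all read in the same libraries, and isoforms also differed in CpG density. The mean number of CpGs within 100 bases had a rho with the order of 0.38 in the first, 0.31 in the middle and 0.09 in the later window, and a rho with the level of 0.03, -0.45 and -0.48 in the same windows. The part of density in the levels was not tested.

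**Figure D5:**
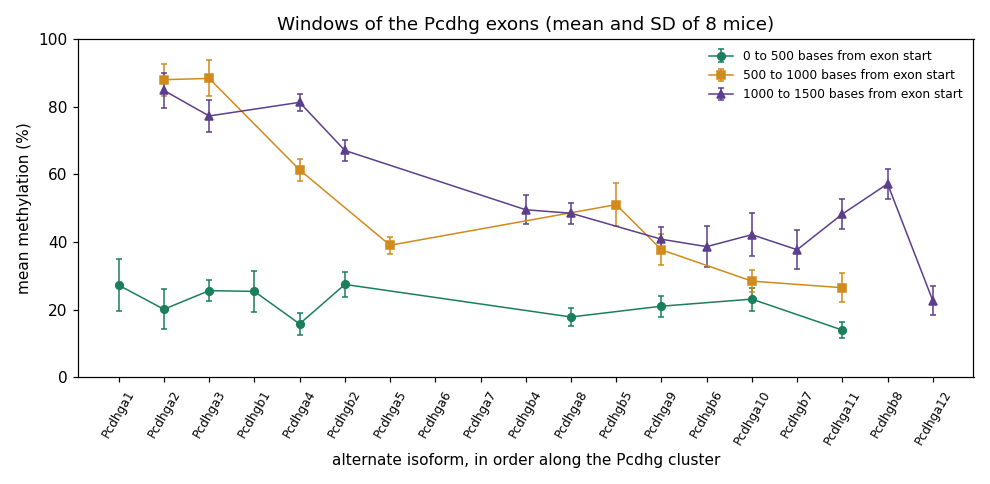
Mean methylation (y axis, percent) of 3 windows of the alternate Pcdhg exons, by isoform in order along the cluster (x axis), with error bars for the SD of 8 mice and lines that join measured isoforms. The first 500 bases (green) stay between 14.0 and 27.5%. The windows from 500 to 1000 (orange) and from 1000 to 1500 bases (purple) are high at the Pcdhga2 end and lower, though not steadily, towards the Pcdhga12 end.

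The 5 C-type isoforms differed widely among themselves, though their exons were not read at the same places. Pcdhgc4, which in mice is needed for the survival of neurons, was nearly unmethylated (37815079 to 37817983, 8 CpGs), with 2.53, 0.98, 0.78 and 1.97% in mid-aged and 0, 2.89, 2.68 and 1.5% in young mice. Pcdhgc3 (37806410 to 37808977, 54 CpGs) was close to it, with an exon mean of 3.76 ± 0.96% (SD, n = 8 mice). Pcdhac2, known in mice for the spacing of serotonergic axons (37143503 to 37146530, 50 CpGs), had 14.4, 13.5, 14.9 and 15.1% in mid-aged and 15.2, 14.7, 13.5 and 13.3% in young mice. Its first 1000 bases were low, with 2.75 ± 2.56% up to base 500 and 4.34 ± 0.84% from there to base 1000, before 24.0 ± 1.5% up to base 1500. Pcdhac1 (37090013 to 37092571, 35 CpGs) had 29.1, 28.5, 27.8 and 30.0% in mid-aged and 30.0, 27.7, 25.3 and 32.5% in young mice. Pcdhgc5 (37819513 to 37822134, 26 CpGs) was the highest, with 46.7, 40.5, 43.1 and 47.5% in mid-aged and 37.9, 41.7, 46.0 and 42.9% in young mice. No 2 of these 5 exons overlapped over the 8 mice except Pcdhgc3 and Pcdhgc4, of which the highest mouse of Pcdhgc4 stood above the lowest mouse of Pcdhgc3.

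Between the age groups, no CpG of the locus passed the test. The quasi-binomial test of the reads, with Benjamini-Hochberg adjustment over all 897285 CpGs, an adjusted p under 0.05 and a difference of at least 5 points, called 0 of 835 CpGs in either direction, where 0.163% of all tested CpGs were called (0.0615% higher and 0.102% lower in mid-aged mice). At an unadjusted p under 0.05 it gave 107 CpGs of the locus (12.8%), against 9.09% of all. Of these, 70 were higher in mid-aged mice (8.38% of the locus), against 5.16% of all. Limma on M values, the log2 ratio of methylated to unmethylated reads, called 0 as well, with 55 CpGs at an unadjusted p under 0.05. Among CpGs of 20 to 80%, where most of the locus lies, 12.5% of the locus and 14.2% of all tested CpGs had an unadjusted p under 0.05. Among CpGs under 20% these shares were 13.0% and 7.68%, and among CpGs over 80% they were 13.6% and 9.02%. With 1 mouse left out, the count of calls was 0 to 1. Without young mouse 1, a CpG between Pcdhb1 and Pcdhb2 (37285411) was called, with 74.1% in mid-aged and 55.2% in young mice (quasi-binomial test, adjusted p = 0.0297, against 0.532 with all mice). Without young mouse 4, a CpG downstream of the Pcdhg cluster (37842432) was called, with 79.5% in mid-aged mice and 55.1% in young mice (adjusted p = 0.0308, against 0.222 with all mice).

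The mean over the locus was 42.2, 41.2, 43.2 and 42.4% in mid-aged mice, against 41.6, 41.1, 40.5 and 40.1% in young mice. It averaged 42.2 ± 0.86% in mid-aged and 40.8 ± 0.66% in young mice, a difference of 1.41 points, and the groups overlapped. Over all tested CpGs the means were 44.2 ± 0.02% and 43.9 ± 0.19%, 0.32 points apart, and there the groups did not overlap. The median difference of a CpG was 1.24 points in the locus and 0.21 points over all CpGs. Weighting CpGs by their reads gave a difference of -2.49 points, with 39.7% in mid-aged and 42.2% in young mice. In that weighting, 6 CpGs between Pcdhb1 and Pcdhb2 took 0.365 to 2.64% of the reads of the locus in mid-aged and 5.35 to 15.4% in young mice. Without the 7 CpGs of the Pcdhb cluster outside its single exons, among them these 6, the weighted difference was -0.83 points. The 4 mid-aged libraries were also the deeper ones (84639955 to 118395064 reads over CpGs, against 46321447 to 72710972 in young mice), so depth and age cannot be told apart. Within the locus, the median coverage of a mouse was 33 to 81 reads in mid-aged and 35 to 62 reads in young mice.

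The mice of the groups did not overlap at 39 CpGs, of which 24 were higher in mid-aged mice (2.87% of the locus, against 2.33% of all tested CpGs) and 15 lower (1.80%, against 1.24%). The single CpGs with the smallest p, among those with at least 10 reads in every mouse, were named after their values were seen. At position 37766851, in the variable exon of Pcdhga12, mid-aged mice had 36.8, 27.4, 26.1 and 34.1% and young mice 18.4, 15.3, 8.89 and 14.3%. The lowest mid-aged mouse lay above the highest young mouse, the means were 31.1 ± 5.16% and 14.2 ± 3.97%, and the quasi-binomial test gave an adjusted p of 0.15. A CpG 15 bases further on, at 37766866, had 30.4, 31.0, 28.2 and 31.7% in mid-aged and 24.2, 15.8, 21.6 and 18.6% in young mice, again without overlap (adjusted p = 0.196 by the quasi-binomial test). At position 37737421 in the exon of Pcdhga9 the order was the reverse, with 12.2, 14.1, 20.6 and 14.0% in mid-aged mice and 24.0, 28.7, 22.7 and 23.9% in young mice (adjusted p = 0.156).

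Exons were compared by limma on their mean percent, adjusted over 25915 exons of the genome. It called 0 of the 38 isoform exons and 0 of the 48 exons with at least 3 tested CpGs in the whole locus, against 0.162% of all exons. At an unadjusted p under 0.05, limma gave 2 of the 38 isoform exons, both higher in mid-aged mice, against 9.26% of all exons (6.4% higher), and the quasi-binomial test of summed reads gave 0 calls and 4 of the 48 exons. Of the isoform exons, 25 were higher and 13 lower in mid-aged mice, with a median difference of 1.47 points, against 0.18 points and 58.0% higher over all exons. The 2 exons with an unadjusted p under 0.05 were also the only isoform exons without overlap of the groups, both higher in mid-aged mice, where 4.33% of all exons had that pattern and 1.85% had the reverse one.

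Pcdhgc3 had the smallest p of the isoform exons. Its exon had 4.4, 5.08, 4.04 and 4.86% in mid-aged mice, against 3.16, 2.68, 2.79 and 3.05% in young mice. The level was low in both groups and the difference was 1.67 points (limma, adjusted p = 0.174), below the 5 points that a call needs. Of its 54 CpGs, 32 were higher and 16 lower in mid-aged mice, and 6 were equal. An exon of the antisense gene BC037039 (48 tested CpGs) overlaps the one of Pcdhgc3, and it was the remaining exon of the locus with an unadjusted p under 0.05 (adjusted p = 0.318 by limma).

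Pcdhb17 had 71.7, 76.5, 81.6 and 72.7% in mid-aged mice, against 68.5, 71.2, 67.8 and 69.3% in young mice (37484795 to 37489454, 13 CpGs). The difference was 6.43 points (limma, adjusted p = 0.514), and 10 of its 13 CpGs were higher in mid-aged mice. The one of them with the smallest p, at 37486153, had 61.9, 60.8, 60.8 and 67.3% in mid-aged mice and 41.5, 40.7, 51.5 and 23.9% in young mice (adjusted p = 0.182 by the quasi-binomial test). The widest difference of an isoform exon was that of Pcdhb15 (4 CpGs), with 62.5, 66.1, 66.4 and 59.5% in mid-aged mice, against 18.5, 58.5, 45.8 and 61.7% in young mice. It came to 17.5 points and did not pass the test (limma, adjusted p = 0.606), with overlapping groups and 1 young mouse far below the others. Over the 38 exons the SD was larger in young than in mid-aged mice in 28.

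Promoters, taken as the stretch that begins 1500 bases before a gene start and ends 500 bases behind it, could be tested for 20 isoforms. Only those of Pcdhac1, Pcdha8, Pcdhga11 and Pcdhgc3 held tested CpGs upstream of the exon (7, 2, 5 and 1). The other promoters were read only at CpGs in the first 500 bases of the exon. Their values are those of that window of the exon and no separate measurement. Limma called 0 of them, against 0.0565% of all 17684 promoters, and 1 had an unadjusted p under 0.05 and was higher in mid-aged mice, against 8.96% of all (6.79% higher). With summed reads in the quasi-binomial test there were again 0 calls and 1 at an unadjusted p under 0.05. The promoter with the small p in limma was that of Pcdhga3 (11 CpGs), with 26.5, 27.0, 27.3 and 30.5% in mid-aged mice, against 20.5, 26.0, 23.0 and 24.2% in young mice, without overlap (limma, adjusted p = 0.469). It was the only promoter of the 20 without overlap of the groups, where 4.68% of all promoters were apart and higher in mid-aged mice and 1.49% apart and lower. The lowest promoter levels were those of Pcdhgc3, at 1.59 ± 0.53% in mid-aged mice and 1.44 ± 1.35% in young mice, and Pcdhgc4, at 1.56 ± 0.83% and 1.77 ± 1.33%, which did not differ beyond their spread, and the highest was that of Pcdhgc5, at 67.7 ± 5.58% and 62.4 ± 6.51%. Of the 20, 13 were higher and 7 lower in mid-aged mice, with a median difference of 0.75 points, against 0.15 points over all promoters.

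Genes known to act on this locus were read at their promoters, for 13 of 20 in the list. They include Ctcf, the factor that loops promoters to enhancers, at 1.46 ± 0.32% in mid-aged mice and 1.10 ± 0.58% in young mice, Rad21, a cohesin subunit, at 0.88 ± 0.25% and 0.89 ± 0.41%, Smchd1, which represses clustered protocadherins, at 1.20 ± 0.26% and 1.28 ± 0.30%, and Dnmt3b, which methylates their promoters in the embryo, at 1.37 ± 0.15% and 0.83 ± 0.30%. These promoters were thus nearly unmethylated in both groups, whereas the X-linked cohesin genes Stag2 and Smc1a had 26.6 ± 2.46% and 33.7 ± 2.56% in mid-aged and 23.3 ± 2.51% and 32.0 ± 2.85% in young mice. Limma called 0 of the 13, against 0.0565% of all promoters, and 1 had an unadjusted p under 0.05, against 8.96% of all. In mid-aged mice 10 were higher and 3 lower, where 60.01% of all promoters were higher. The promoters of other protocadherins and of large cadherins (18 of 23) had a median level of 2.51%. Limma called 0 of them, and 3 had an unadjusted p under 0.05, against 8.96% of all promoters. Of these, 17 were higher and 1 lower in mid-aged mice, where 60.01% of all promoters were higher. Pcdh20 had the smallest p, with 2.48 ± 0.44% in mid-aged and 0.71 ± 0.92% in young mice (limma, adjusted p = 0.325).

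As a check of the cell type, promoters of hepatocyte genes were tested for 3 of 17 markers, with Ass1 (urea cycle) at 1.5 ± 0.31% in mid-aged mice and 1.34 ± 0.69% in young mice. The mean over these 3 was 12.5 to 17.6% in mid-aged and 8.01 to 15.1% in young mice. The leukocyte markers Vav1 and Adgre1 were highly methylated, Vav1 at 63.6 ± 4.49% in mid-aged mice and 68.8 ± 8.09% in young mice, and Adgre1 at 85.2 ± 7.81% and 89.2 ± 10.14%. Kdr, the only endothelial marker tested of 8, had 2.65 ± 1.41% in mid-aged and 2.66 ± 2.99% in young mice, and Sox9, the only cholangiocyte marker tested of 5, had 2.07 ± 0.26% and 1.16 ± 0.23%. The 6 of 6 stellate cell markers averaged 17.9 to 19.6% in mid-aged and 18.3 to 20.6% in young mice. Singly they ranged between 2.48% (Lrat) and 40.7% (Pdgfrb) in mid-aged mice, and between 1.84% (Lrat) and 42.7% (Col1a1) in young mice. Levels of a few percent were thus found at 1 of the 3 hepatocyte markers (Ass1) and also at markers of other liver cells (Kdr, Sox9 and Lrat). Limma called 0 of these hepatocyte, leukocyte, endothelial, cholangiocyte and stellate cell markers, of which Reln, a stellate cell marker, and Sox9 had an unadjusted p under 0.05. Of all promoters, 8.96% had such a p. The part of other liver cells in the levels of the locus was not tested.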

How the data were processed

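The authors deposited, for each strand of a CpG, the percent of reads that were methylated and the coverage as a read count, on mm10. Tools listed in the submitters' processing notes are BWA 0.6.2, Picard 1.115, SAMtools 1.3, Trim Galore 0.4.2 and FastQC. No methylation caller was stated there. PCR copies cannot be told from molecules, and RRBS reads only CpGs near MspI sites.

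Methylated reads were computed from both columns, and strands were summed. CpGs with at least 5 reads in every mouse were tested in a quasi-binomial logistic model (F test, dispersion moderated by limma and at least 1), with Benjamini-Hochberg adjustment over all of them. A call needed an adjusted p under 0.05, 5 points of difference between group means and a variance under 0.05 in both groups. Merged exons of the GENCODE basic annotation and promoters, each with at least 3 tested CpGs, were tested on their mean percent by limma with trend, adjusted over the genome, with the same limits on p and difference. CpG density was counted in the mm10 genome. Python 3.11.15, numpy 2.4.6, pandas 2.3.3, scipy 1.17.1, numba 0.67.0, matplotlib 3.10.9, R 4.3.3 and limma 3.58.1 were used. The quasi-binomial test of CpGs, the limma test of exons and the recovery of methylated reads were tested on simulated data.

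Groups were taken from the age given for each sample, with 4 mice each. The p-values rest on the spread between these mice, moderated over the genome. In the quasi-binomial test that spread was never taken as less than the read numbers alone would give. The highest share of CpGs with identical counts in 2 libraries was 0.961%. The members and lists were chosen with earlier results of these data known. By rule, the text names called exons, promoters and CpGs, the highest and lowest isoform exon of each cluster, the C-type isoforms, Taf7 and Slc25a2. The other isoforms named (among them Pcdhb17, Pcdhb15, Pcdhga3 and Pcdhga12) were chosen after their values were seen. Alternatives were a minimum of 10 reads, leaving out each mouse, a block for the replicate number, no minimum difference and limma on M values. Further ones were summed reads, narrower promoters, weighting by reads and leaving out CpGs whose surroundings recur in the locus. DNA sequences are not shown. One further marker promoter is not reported here.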

Additional observations from a re-analysis of the deposited data

Results flagged for a closer look

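In 130 groups of 4 mice, formed by the sections and exons of the locus, 5 held a mouse far from the other 3 by Dixon's test, and chance gives about 1 in 20. At the CpGs of the Pcdha cluster outside its variable and constant exons and upstream stretches (26 CpGs), mid-aged mouse 1 had 79.8%. The other mid-aged mice had 75.6 to 76.1%. At the dense CpGs of the locus, young mouse 1 had 28.2%, against 26.5 to 26.7% in the other young mice. In the exon of Pcdha8, young mouse 4 had 47.9%, against 51.3 to 51.9%. In the exon of Pcdhb3 (4 CpGs), young mouse 3 had 50.4%, against 66.5 to 68.3%. In the exon of Pcdhb9 (3 CpGs), mid-aged mouse 2 had 74.0%, against 90.4 to 91.7%.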

How the results depend on the processing

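Exon and promoter calls in the locus were 0 under every alternative run, and CpG calls were 0 under every alternative except without young replicate 1 and without young replicate 4, with 1 call each, so that leaving out 1 mouse gave 0 to 1. The number of CpGs called in the whole genome was 1466, against 614 to 2405 with 1 mouse left out and 40 by limma on M values, that of exons was 42, against 6 to 24 and, with summed reads, 291, and that of promoters was 10, against 2 to 8 and 84. The difference of the locus, 1.41 points, was 1.08 to 1.77 points with 1 mouse left out, 1.27 points with 10 reads and 1.46 points without recurring surroundings. It was -2.49 points with CpGs weighted by their reads. With that weighting but without the 7 CpGs of the Pcdhb cluster outside its single exons it was -0.83 points. This last alternative was chosen after seeing the data, and the cause was not tested. Weighting also gave -1.37 points for the Pcdha variable exons and -0.63 points for the C-type exons. Of 74 alternative levels of isoform exons, 20 moved by more than the spread between mice, by at most 16.9 points (Pcdhga8).

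Same-numbered mice correlated at -0.0016 to 0.0058 in their deviations and mice of different numbers at -0.0084 to 0.0055. All these values were small, yet 6 of 8 mice correlated best with their own number. Whether mice of the same replicate number shared a batch cannot be told from this. With a replicate block, 0 CpGs (49 at an unadjusted p under 0.05), 0 exons and 0 promoters of the locus were called, and 0 in the whole genome. Coverage limits the reading to 7.52% of the CpGs of the locus, a low number of reads gives wide errors at single CpGs, and isoform levels depend on which stretch of an exon was read.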

Other observations

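The 6 CpGs between Pcdhb1 and Pcdhb2 (chromosome 18, 37285411 to 37285505) stood out by their read numbers. They had a mean of 26.0, 181, 338 and 197 reads in mid-aged mice, against 1260, 763, 536 and 634 reads in young mice. Scaled to 1000000 reads over CpGs this was 0.307, 1.71, 3.83 and 1.66 reads in mid-aged mice, against 27.2, 10.5, 8.63 and 9.23 in young mice, without overlap. Their methylation was 76.6, 71, 62.6 and 61.5% in mid-aged and 67.1, 61.2, 65.1 and 52.6% in young mice, so the groups overlapped there. Over the locus, scaled read numbers did not overlap between the groups at 7 CpGs with more reads in mid-aged mice (0.838%, against 3.89% of all tested CpGs) and at 25 CpGs with more reads in young mice (2.99%, against 3.53%). The surroundings of 188 CpGs of the locus (22.5%) had a match of at least 90% identity elsewhere in the locus or directly beside it. This was counted with C read as T, and the rest of the genome was not searched.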
